A study of Mus musculus with 11 samples.

Results

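Endothelins and apelin are small secreted peptides that act through G protein-coupled receptors on vessels, smooth muscle, nerves and epithelium. The set described here holds the 8 genes Edn1, Edn2, Edn3, Ednra, Ednrb, Ece1, Apln and Aplnr, measured in mouse colon before and after an imatinib injection. Its members were the probe sets that the platform annotation maps to exactly 1 of these symbols, which gave 15 of 45101 probe sets and 7 of the 8 genes. Ednra, which encodes endothelin receptor A, was not analysed here. The 7 genes stand among 18193 genes tested. The labels give 3 groups of adult C57BL/6 colon, namely control colon from before imatinib (n = 3), colon 3 h after an imatinib injection (n = 4) and colon 12 h after it (n = 4). Imatinib blocks several tyrosine kinases, among them Abl, PDGF receptors and Kit, and the series title concerns EphB and Abl signalling in intestinal tumours. Dose, sex and hour of day were not stated in the sources at hand, and vehicle-injected mice were not analysed here, so drug, injection and hour of harvest cannot be told apart. The labels do not say that the samples of a group came from separate mice, so the spread behind each p-value is that among these samples and may be technical.

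Endothelins are made as long precursors that endothelin converting enzymes, of which Ece1 encodes the best known, cut to the active peptide. Endothelin 1 constricts vessels mainly through receptor A on smooth muscle, while receptor B (Ednrb) on endothelium releases nitric oxide and clears the peptide. In the gut, endothelin 3 and Ednrb guide neural crest cells into the wall during development, and loss of either leaves part of the colon without enteric neurons. Apelin is released by endothelial sprouts and fat cells, and its receptor (Aplnr) lies on endothelium, where it acts in vessel growth and tone.

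The set was chosen from earlier results on these arrays, which already listed Edn1 among the largest falls at 12 h and Aplnr among the largest falls at 3 h. The values of these 2 genes are therefore given as descriptions with no test. The other 5 measured genes, Edn2, Edn3, Ednrb, Ece1 and Apln, were tested in the fit over all genes. Signals are linear array intensities, and log2 changes are of the signal plus 16, which understates the change of dim probe sets. Each gene is given by its brightest probe set unless stated.

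Edn1 at 12 h was the member farthest from control. The sequence before its transcript start is shown, beside that of Edn2, which moved the other way. Both sequences are the 250 bases before the RefSeq transcript start, from the GRCm38.p6 assembly, on the plus strand, chr13:42301226-42301475 for Edn1 and chr4:120160956-120161205 for Edn2.
Edn1: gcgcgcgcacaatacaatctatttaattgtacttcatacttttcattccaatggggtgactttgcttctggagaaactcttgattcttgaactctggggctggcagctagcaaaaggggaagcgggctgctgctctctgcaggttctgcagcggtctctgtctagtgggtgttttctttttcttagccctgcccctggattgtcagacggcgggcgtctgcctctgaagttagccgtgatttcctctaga
Edn2: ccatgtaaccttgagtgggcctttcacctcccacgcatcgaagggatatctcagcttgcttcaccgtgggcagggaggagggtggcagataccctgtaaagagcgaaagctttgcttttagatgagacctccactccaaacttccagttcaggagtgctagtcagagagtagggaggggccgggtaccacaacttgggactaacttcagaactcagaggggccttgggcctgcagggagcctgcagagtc
The following 6 short motifs were searched on both strands of the window from 250 bases before to 50 bases after the start: TGANTCA, a form bound by AP-1 factors, a variant of it with the letters TGACTAA, the sequence GATAA of GATA factors, the core ACGTG bound by hypoxia-inducible and other factors, the glucocorticoid receptor half-site AGAACA, plus the nuclear receptor half-site AGGTCA. The window of Edn1 held GATAA at bases 9 to 13 after the start, ACGTG at 22 to 26 and TGACTAA at 37 to 43, and none of the 6 lay in the 250 bases printed. The stretch with the last 2 matches, at chr13:42301497-42301518, is given with the matches in capitals, the first of them read on the other strand.
Edn1 after the start: CACGTtgcctgtgggTGACTAA
Over 32851 windows of the same length, 25.4% held GATAA, 19.6% ACGTG and 2.35% TGACTAA, while TGANTCA lay in 7.81%, AGAACA in 19.0% and AGGTCA in 16.3%. The Edn2 window held none of them. A match is a description of letters and shows no binding. Whether the RefSeq start is the one used in colon was not examined, so the bases printed need not be the main promoter.

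Edn1 encodes endothelin 1, the main vasoconstrictor of the family, which epithelium and endothelium both release. Its signal was 445.7, 347.5 and 182.0 on the control arrays, 348.4, 436.6, 381.7 and 305.3 at 3 h, and 40.0, 51.1, 42.9 and 101.4 at 12 h. The 12 h arrays all lay below every control and every 3 h array, while the 3 h arrays lay within the control range, in which control replicate 3 was low. Group means were 325.1 ± 133.3 (SD, n = 3) in control, 368.0 ± 55.4 (SD, n = 4) at 3 h and 58.9 ± 28.8 (SD, n = 4) at 12 h. The log2 change at 12 h was −2.17 ± 0.29 (SE) against control, a 4.50-fold lower level of signal plus 16. Between 12 h and 3 h it was −2.42 ± 0.27 (SE). At 3 h against control it was 0.25 ± 0.29 (SE), less than the spread between arrays, and it turned to −0.10 without control replicate 3. Edn1 was read by 1 probe set, so no other probe set of the gene could be compared.

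**Figure D1:**
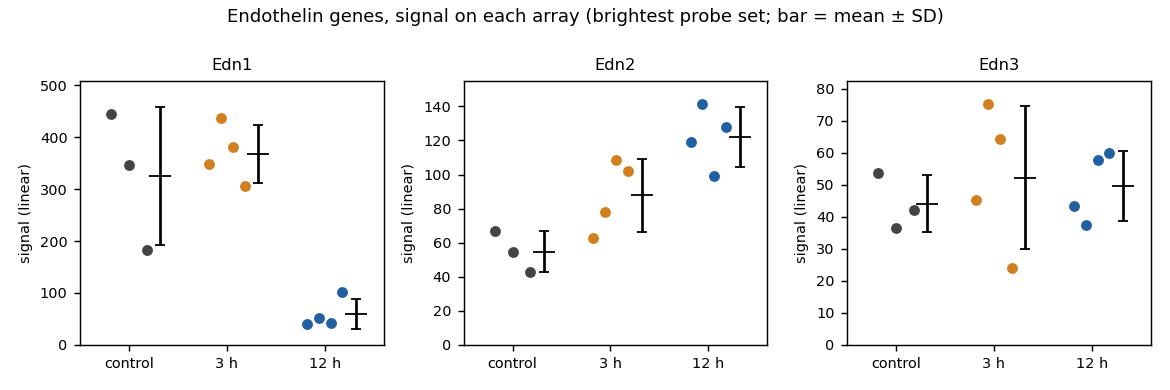
Signal of Edn1, Edn2 and Edn3 on each array (linear, from 0), with control, 3 h and 12 h on the horizontal axis and a bar for mean ± SD. Edn1 at 12 h lies between 40.0 and 101.4, under every other array, while the Edn2 arrays at 12 h, from 99.2, lie above all controls, which reach 66.8.

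Edn2 encodes endothelin 2, a peptide that binds both receptors like endothelin 1 and is made by intestinal epithelium. Its signal was 66.8, 54.5 and 42.9 in control, 62.5, 78.0, 108.7 and 101.9 at 3 h, and 119.2, 141.2, 99.2 and 127.9 at 12 h. All 12 h arrays were above all controls, and the 3 h arrays overlapped both groups. Edn2 rose at 12 h by 0.97 on the log2 scale (SE 0.18, limma adjusted p = 0.0220), from a mean of 54.7 ± 12.0 (SD, n = 3) to 121.9 ± 17.6 (SD, n = 4). At 3 h the mean was 87.8 ± 21.4 (SD, n = 4), 0.54 ± 0.18 (SE) above control on the log2 scale (limma adjusted p = 0.147), and 12 h against 3 h gave 0.42 ± 0.16 (SE; limma adjusted p = 0.191). The 12 h call was lost without control replicate 2 (limma adjusted p = 0.0883), control replicate 3 (0.0606) or 12 h replicate 2 (0.0597), and with an offset of 1 in place of 16 (0.0610), with log2 changes from 0.84 to 1.15 in these fits.

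Edn3 encodes endothelin 3, the ligand of Ednrb in enteric nerve development, and had 4 dim probe sets. The brightest read 53.8, 36.4 and 42.0 in control, 45.4, 75.2, 64.4 and 24.1 at 3 h, and 43.3, 37.5, 57.6 and 59.8 at 12 h. The 3 h arrays spread on both sides of the other groups. Its name ends in _x_at, which on this kind of array marks probes that may bind other transcripts. The log2 change was 0.13 ± 0.24 (SE; limma adjusted p = 0.882) at 3 h, with a 95% interval from −0.40 to 0.66, and 0.12 ± 0.24 (SE; limma adjusted p = 0.878) at 12 h, from −0.41 to 0.65. The 4 probe sets did not share a direction, with 2 higher and 2 lower at 3 h and 3 higher and 1 lower at 12 h. Over the 11 arrays they correlated with each other at r from 0.28 to 0.61. A moderate change of Edn3 was not detectable with these arrays.

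Ednrb, the receptor that binds all 3 endothelins with like affinity, read 99, 81.7 and 83.6 in control, 110.2, 111.4, 109.2 and 122.8 at 3 h, and 58.7, 88.7, 101.7 and 99 at 12 h. Every 3 h array was above every control and every 12 h array, while 12 h overlapped control. The log2 change was 0.32 ± 0.15 (SE) at 3 h (limma adjusted p = 0.343), −0.03 ± 0.15 (SE) at 12 h (limma adjusted p = 0.954) and −0.35 ± 0.14 (SE) between 12 h and 3 h (limma adjusted p = 0.199). The 95% interval at 3 h ran from −0.01 to 0.64. All 3 probe sets of Ednrb were higher at 3 h, at 0.24 to 0.32, and lower from 3 h to 12 h, at −0.35 to −0.09, and none was called in the fit over all probe sets, in which 0.961% were called at 3 h, 0.486% at 12 h and 1.74% between them. At 12 h their signs differed, from −0.03 to 0.17.

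Ece1 encodes endothelin converting enzyme 1, a membrane metalloprotease. It read 302.7, 352.2 and 284.1 in control, 414.3, 393.0, 376.1 and 409.1 at 3 h, and 305.2, 362.6, 364.7 and 350.1 at 12 h. As for Ednrb, the 3 h arrays were all above the other 2 groups. The log2 change was 0.34 ± 0.10 (SE; limma adjusted p = 0.126) at 3 h, with a 95% interval from 0.11 to 0.56, then 0.14 ± 0.10 (SE; limma adjusted p = 0.591) at 12 h against control. From 3 h to 12 h it was −0.20 ± 0.10 (SE; limma adjusted p = 0.315). The next brightest probe set read 166.4 to 265.3 in control and 189.8 to 249.4 at 3 h, so its groups overlapped, with a log2 change of 0.13 ± 0.15 (SE). The dimmest gave −0.12 ± 0.23 (SE), and its correlation with the brightest over the 11 arrays was −0.17.

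**Figure D2:**
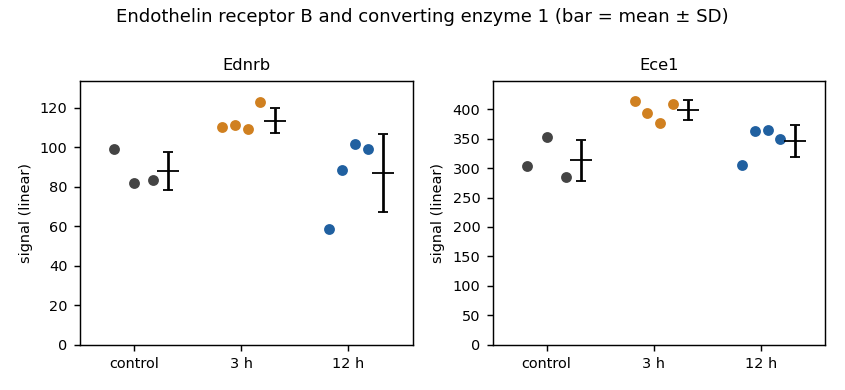
Signal of Ednrb and Ece1 on each array (linear, from 0; brightest probe set) by group, with a bar for mean ± SD. The 3 h arrays, from 109.2 for Ednrb and from 376.1 for Ece1, lie above all arrays of the other groups.

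Apln encodes the precursor of apelin. Its single probe set was dim, at 32.2, 28.7 and 35.9 in control, 33.0, 19.5, 42.8 and 22.1 at 3 h, and 16.7, 21.1, 20.0 and 26.2 at 12 h, where array medians over all probe sets lay from 16.8 to 23.9. The 12 h arrays lay below all controls, and the 3 h arrays spanned both. Its log2 change of −0.39 ± 0.16 (SE) at 12 h did not pass (limma adjusted p = 0.275), and at 3 h it was −0.12 ± 0.16 (SE; limma adjusted p = 0.828). Fat cells make apelin, and 10 of 12 fat cell markers were measured. Their summed signal was 2706 to 3087 in control, 4687 to 6320 at 3 h and 2627 to 5918 at 12 h, with 2 called higher at 3 h (Scd1 and Fabp4), 1 at 12 h (Fabp4) and none lower than control. From 3 h to 12 h Scd1 fell by 0.85 ± 0.18 (SE; limma adjusted p = 0.0200). Whether these had a part in the Apln values was not tested.

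Aplnr encodes the apelin receptor. Its brighter probe set read 56.5, 69.0 and 75.2 in control, 16.4, 16.4, 23.1 and 26.7 at 3 h, and 29.1, 23.3, 31.0 and 21.1 at 12 h. Every array after imatinib lay below every control, and the 3 h and 12 h arrays overlapped. The means were 66.9 ± 9.53 (SD, n = 3), 20.7 ± 5.12 (SD, n = 4) and 26.1 ± 4.68 (SD, n = 4). Against control the log2 change was −1.18 ± 0.14 (SE) at 3 h and −0.98 ± 0.14 (SE) at 12 h, and these comparisons share the control arrays. Between 12 h and 3 h it was 0.20 ± 0.13 (SE). The dimmer probe set read 25.9, 21.3 and 28.7 in control, 27.1, 12.5, 8.4 and 11.2 at 3 h, and 12.9, 14.1, 19.2 and 16.4 at 12 h. It too had its 12 h arrays below all controls, but 3 h replicate 1 lay within the control range, and its log2 changes were smaller, at −0.45 ± 0.17 (SE) and −0.38 ± 0.17 (SE).

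**Figure D3:**
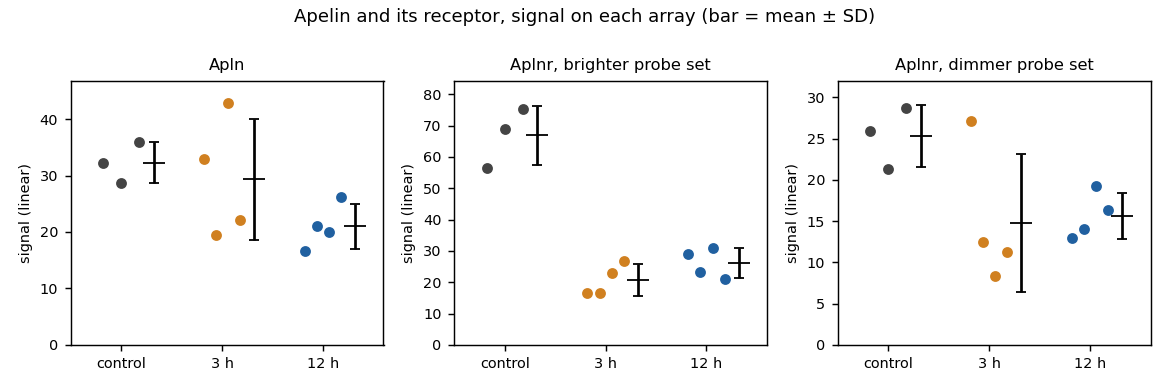
Signal of Apln and of both Aplnr probe sets on each array (linear, from 0) by group, with a bar for mean ± SD. On the brighter Aplnr probe set the 3 h and 12 h arrays reach 31.0 at most and the controls lie between 56.5 and 75.2.

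Aplnr is an endothelial gene, and in bulk colon fewer cells of a type and less RNA per cell cannot be told apart. All 25 endothelial cell markers were measured, and none was called at 3 h or at 12 h against control (limma; 3 and 3 with an unadjusted p under 0.05). Their median log2 change was 0.01 at 3 h and −0.01 at 12 h, beside −0.02 and −0.01 over all genes. Single markers ran from −0.59 to 0.31 at 3 h and from −0.62 to 0.37 at 12 h. The dimmer Aplnr probe set, at −0.45 and −0.38, lay within these ranges, and the brighter one lay below both. Aplnr was chosen with its fall at 3 h known, so that order was partly fixed by the choice and was not tested. The part of endothelial cell number in the Aplnr values was not tested either. The lowest was the tight junction gene Cldn5, at −0.59 ± 0.16 (SE; limma adjusted p = 0.0841) for 3 h and −0.62 ± 0.16 (SE; limma adjusted p = 0.0829) at 12 h. The summed endothelial signal was 1296 to 1445 in control, 1313 to 1455 at 3 h and 1177 to 1353 at 12 h. Lyve1, with a mean of 270.5 in control, weighed most in that sum. None of the 25 was at 0 on any array, but 4 had a mean signal under 16, where array medians were 16.8 to 23.9. Such dim markers limit what the median and the sum could show. Between 12 h and 3 h, Sox18, an endothelial transcription factor, rose by 0.71 ± 0.15 (SE; limma adjusted p = 0.0218). Its mean was 52 in control, 30 at 3 h and 60 at 12 h. The median of the 25 in that comparison was −0.02, and Lyve1 and Pecam1, next by p, were lower and not called.

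**Figure D4:**
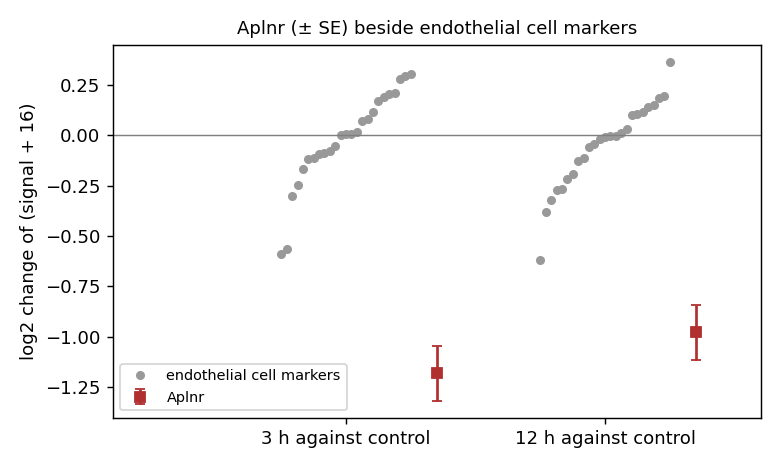
Log2 change against control (vertical axis, of signal plus 16) of the 25 endothelial cell markers (grey points, in order of size) and of the brighter Aplnr probe set (square, ± SE) at 3 h and at 12 h. This probe set, at −1.18 and −0.98, lies under the lowest markers, at −0.59 and −0.62, an order partly fixed by the choice of Aplnr with the 3 h fall known. The dimmer Aplnr probe set, which lay within the marker range, is not drawn.

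Of the 5 tested members, none was called at 3 h, where 2.54% of all genes were. Edn2 was called at 12 h, where 1.63% of all genes were. None was called between 12 h and 3 h, where 4.07% of all genes were (limma, adjusted p under 0.05). Unadjusted p was under 0.05 for 2 of the 5 in each comparison, where it was for 15.0%, 15.8% and 17.8% of all genes. These were Edn2 and Ece1 at 3 h, Edn2 and Apln at 12 h, and Edn2 and Ednrb between 12 h and 3 h. Arrays did not overlap for 2 of the 5 in each comparison, beside 15.3%, 13.0% and 11.6% of all genes. With Edn1 and Aplnr included, the counts were 3, 4 and 3 of 7, which the choice of the set partly fixed. The median log2 change over the 7 was 0.25 at 3 h, −0.03 at 12 h and −0.20 between them, where over all genes it was −0.02, −0.01 and 0.01. The 2 ligands that share both receptors, Edn1 and Edn2, thus stood on opposite sides of control at 12 h.

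**Figure D5:**
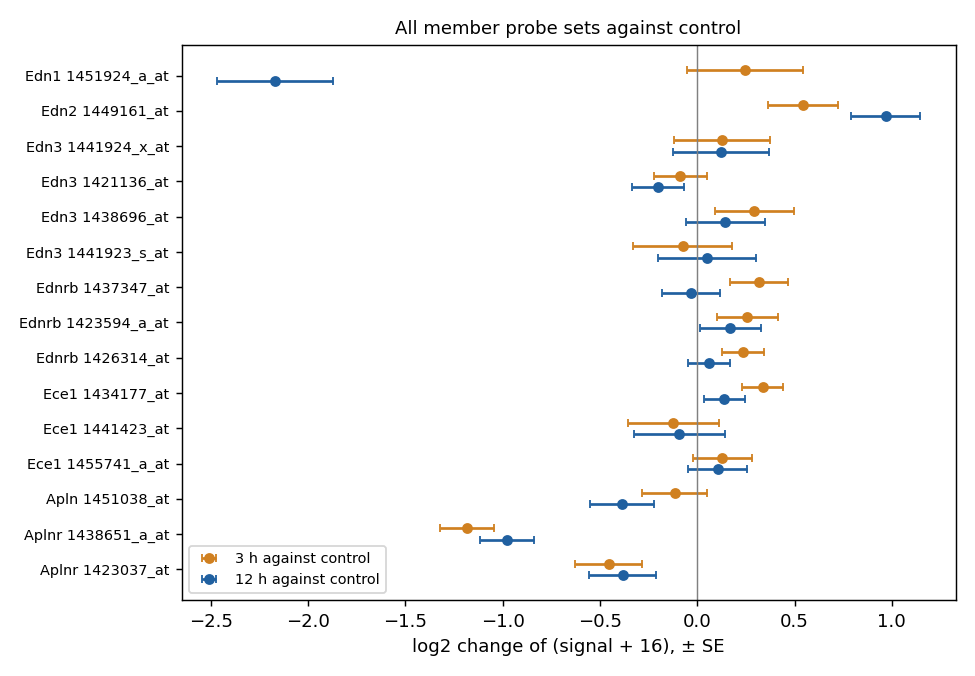
Log2 change against control (horizontal axis, of signal plus 16, ± SE) of all 15 member probe sets at 3 h and at 12 h. Edn1 at 12 h (−2.17) and the brighter Aplnr probe set (−1.18 and −0.98) lie farthest to the left, and Edn2 at 12 h (0.97) farthest to the right.

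Enzymes that make or break down the peptides were measured for 14 of 15 listed genes. They include the second converting enzyme gene Ece2, the proprotein convertase Furin, which cuts the precursors, and neprilysin (Mme), which degrades both peptides. None was called in any of the 3 comparisons (limma; 1, 4 and 2 with an unadjusted p under 0.05). Medians were 0.06, 0.08 and 0.02, beside −0.02, −0.01 and 0.01 over all genes. The log2 change of Ece2 at 12 h was 0.27 ± 0.11 (SE), which did not pass (limma adjusted p = 0.235). Of 18 measured genes of Gq signalling, the G protein class through which endothelin receptors raise calcium, none was called either (limma; 2, 3 and 6 with an unadjusted p under 0.05). Medians were −0.01, −0.04 and −0.05. For the G protein subunit gene Gnaq the value was −0.41 ± 0.10 (SE; limma adjusted p = 0.0639) at 12 h. The brighter subunit gene Gna11 went the other way, at 0.38 ± 0.12 (SE; limma adjusted p = 0.147).

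Among 28 measured genes of other vasoactive systems, 1 was called in the 3 comparisons. Ramp3, which encodes a subunit of adrenomedullin receptors, fell between 3 h and 12 h by 0.55 ± 0.14 (SE; limma adjusted p = 0.0434), after 0.58 ± 0.15 (SE; limma adjusted p = 0.0620) at 3 h against control. It was dim, with a mean signal of 19.5 in control, 37.1 at 3 h and 20.25 at 12 h, where array medians were 16.8 to 23.9. None of the 28 was called against control at 3 h or 12 h. Unadjusted p was under 0.05 for 4 at 3 h, 3 at 12 h and 10 between 12 h and 3 h (limma). Over all genes the shares were 15.0%, 15.8% and 17.8%. Of 10 endothelial tip cell genes, which like Apln mark sprouting vessels, none was called against control. The cells behind their signal in bulk colon were not identified. Unadjusted p was under 0.05 for 4 at 3 h, 0 at 12 h and 5 between 12 h and 3 h (limma). Between 12 h and 3 h the chemokine receptor gene Cxcr4 fell by 0.81 ± 0.18 (SE; limma adjusted p = 0.0265) and the netrin receptor gene Unc5b by 0.65 ± 0.15 (SE; limma adjusted p = 0.0354). Adm went the other way, at 0.39 ± 0.14 (SE; limma adjusted p = 0.150), and the median of the 10 was −0.11. Cxcr4 was dim as well, with a mean signal of 23.0 in control, 45.65 at 3 h and 20.2 at 12 h.

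Edn1 and Apln are known targets of hypoxia-inducible factors, and all 20 listed hypoxia genes were measured. At 3 h the glycolytic regulator Pfkfb3 rose by 1.77 ± 0.16 (SE; limma adjusted p = 0.000172) and Ndrg1 by 0.96 ± 0.15 (SE; limma adjusted p = 0.00636). The collagen hydroxylase gene P4ha1 fell by 0.83 ± 0.09 (SE; limma adjusted p = 0.000509). No other of the 20 was called at 3 h, and their median was −0.07, beside −0.02 over all genes. At 12 h none of the 20 was called (limma; 5 with an unadjusted p under 0.05), with a median of 0.03. In the 12 h against 3 h comparison Pfkfb3 fell by 1.87 ± 0.15 (SE; limma adjusted p = 3.07e-05) and Ndrg1 by 0.64 ± 0.14 (SE; limma adjusted p = 0.0231), while P4ha1 rose by 0.48 ± 0.08 (SE; limma adjusted p = 0.00746). Any part of hypoxia signalling in the Edn1 and Apln values was not tested.

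Cells that carry endothelin receptors were followed through their markers. Of 17 smooth muscle and pericyte markers, Kcnj8, a pericyte potassium channel gene, rose at 3 h by 1.97 ± 0.37 (SE; limma adjusted p = 0.0179). The others did not share this rise. At 3 h the median of the 17 was 0.08, with a lowest value of −0.69. Myocd, Lmod1 and Pdgfrb, next by p, were lower and not called. At 12 h none of the 17 was called, but 11 had an unadjusted p under 0.05 (limma), where 15.8% of all genes did. The median of the 17 was then −0.37, beside −0.01 over all genes. Directions differed, from −1.08 for Synm to 1.11 for Kcnj8, which was still above control. On 12 h replicate 4, Synm at 819.5 and Kcnj8 at 88.3 lay within their control ranges. Their summed signal was 24620 to 29137 in control, 25354 to 35615 at 3 h and 17235 to 27330 at 12 h. From 3 h to 12 h Des and Actg2, both contractile cell genes, fell by 0.88 ± 0.19 (SE; limma adjusted p = 0.0218) and 0.76 ± 0.17 (SE; limma adjusted p = 0.0247). Of 21 measured enteric neuron and glia markers, which include the cells that depend on Edn3 and Ednrb in development, none was called in any comparison (limma; 2, 3 and 5 with an unadjusted p under 0.05), with medians of −0.07, −0.01 and −0.03. None of 16 colon epithelial markers was called in any comparison (limma; 2, 3 and 1 with an unadjusted p under 0.05). The tissue label was checked on Epcam, with a mean signal of 5113 ± 819 (SD, n = 3) in control, and on the mucin gene Muc2, at 8614 ± 1881 (SD, n = 3).

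Whole-array facts touch these results. The summed signal of 12 probe sets for control transcripts that are added to the RNA was 2055 to 2489 in control, 2257 to 2726 at 3 h and 3012 to 5655 at 12 h, so it was higher on every 12 h array, on which Edn1 was low. Pancreatic acinar transcripts were high on 5 arrays, namely control replicate 1, 3 h replicate 3 and 12 h replicates 1, 3 and 4, with summed signals of 27990 to 104941 against 2388 to 4221 on the other 6. Without those 5 arrays, 1 array was left at 12 h, which is assumed to vary like the others. The log2 change at 12 h was then −2.00 for Edn1, −1.16 for Aplnr and 1.29 for Edn2 (limma adjusted p = 0.284 for Edn2, when 8 genes in all were called). The part of the added transcripts in these values was not tested.

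The genes with the most similar pattern were found by Pearson's r over the 11 arrays, as a description that holds both the group differences and the spread within groups. For Edn1 they were Sparcl1 (r = 0.98), Cpm (0.96), Macf1 (0.95), Adcy5 (0.95) and Lama3 (0.95). Sparcl1, which encodes a matrix-associated glycoprotein, went from a mean of 1035 in control to 750.0 at 12 h, and Lama3, a laminin subunit gene, from 220.0 to 97.3. After group means were removed r was 0.92 for Sparcl1 and 0.48 for Lama3. For Aplnr they were Wdr48 (0.93), Fam114a2 (0.92), Frmd4b (0.92), Irs1 (0.91) and Zfp760 (0.91). Within groups r for Irs1, an insulin receptor substrate gene, was −0.03, so its likeness lay in the group means, which were 188.0, 80.8 and 104.3 from control to 12 h.

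The genes closest to Edn2 were Zfp597 (r = 0.92), Zswim7 (0.90), Fam53b (0.88), Chic1 (0.88) and Tom1 (0.87). Ednrb was closest to Mettl22 (0.94), Asap1 (0.91), Ddx10 (0.91), Nifk (0.90) and the calcium pump gene Atp2b1 (0.89), with r within groups of 0.83 to 0.93. Ece1 was closest to Paqr8 (0.93), Usp36 (0.91), Ndrg1 (0.91), Epn2 (0.90) and Dpyd (0.89), and Apln to Eml2 (0.90), Blvrb (0.85), Tm6sf1 (0.85), Ykt6 (0.85) and Thoc2 (0.83). The brightest Edn3 probe set followed Rpl22 (0.93), Gabarap (0.92), Serf2 (0.91), Cox7a2 (0.89) and Tmbim6 (0.88), genes with mean signals of 2389 to 6484 in control.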

How the data were processed

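Total RNA from adult mouse colon, extracted with Trizol and biotin-labelled per the labels' protocols, was hybridised to Affymetrix arrays. The deposited values are linear intensities, 1 per probe set, and their software is not given in the sources used here. With the lowest and highest 2% of values dropped, each array averaged 100.0, so arrays had been scaled by 1 factor each. No 2 arrays were identical. Gene names came from the platform annotation, updated to RefSeq symbols through Entrez numbers, of which 99.4% were found. The probe set with the highest mean log2 signal stood for its gene. Log2(signal + 16) was tested with limma 3.58.1 in R 4.3.3 on all 11 arrays, 2-sided, with Benjamini-Hochberg adjustment over 18193 genes and calls at an adjusted p under 0.05. All probe sets were also tested, in a fit of their own. The number of arrays limits the precision. Members and lists were chosen with earlier results of these data known. Named genes were all members, up to 4 genes per list and comparison with the smallest p, and 5 similar genes per member among genes with a mean signal of 32 or more. Furin, Mme, Epcam and Muc2 were named for their roles. Zg16, a colon gene, was left out of the pancreatic sum. The procedure was tested on simulated data. Alternatives covered offset, scaling, level filter, probe sets, array weights, prior, arrays fitted, replicate block and threshold. Promoters came from RefSeq (GRCm38.p6), which gave windows for 7 of the 8 genes and 4 of them for Ece1. Figures used matplotlib 3.10.9.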

Additional observations from a re-analysis of the deposited data

Results flagged for a closer look

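In 30 groups of 4 arrays, 2 for each of the 15 member probe sets, 1 array stood far from the other 3 in 5 cases, where chance gives about 1 in 20 groups. On a dim Ece1 probe set 3 h replicate 3 read 26.8. On a dim Edn3 probe set 3 h replicate 2 read 63.4 and 12 h replicate 1 read 22.9. For Ednrb, 3 h replicate 4 read 122.8 on the brightest probe set and 12 h replicate 2 read 32.8 on a dimmer one.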

How the results depend on the processing

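The 15 changes of tested members were recomputed 345 times in all, of which 327 kept the direction and the side of the threshold, 6 lost the call of Edn2 at 12 h, 12 turned the sign of a change that was not called, and 0 gained a call. Of 138 values for the 6 untested changes of Edn1 and Aplnr, 9 moved by more than the SD between arrays and 1 turned sign. Without the 5 arrays high in pancreatic transcripts, a choice made after seeing the data, Edn3 at 12 h was −0.043 and Ednrb at 12 h 0.086. The mean of all probe sets gave Ednrb 0.066 at 12 h. Between 12 h and 3 h Edn3 was 0.017 with an offset of 1 and 0.032 after quantile normalization. Leaving out each array in turn gave −0.10 to 0.51 for Edn1 at 3 h, and for Edn3 −0.033 to 0.36 at 3 h and −0.24 to 0.15 between 12 h and 3 h. It gave −0.11 to 0.11 for Ednrb at 12 h. Over all alternatives, the log2 change of Aplnr ran from −1.67 to −0.63 at 3 h and from −1.33 to −0.54 at 12 h. These ends came from the offsets of 1 and 64. Single arrays left out gave Aplnr −1.27 to −1.11 at 3 h and −1.07 to −0.90 at 12 h. That of Edn1 at 12 h ran from −2.52 to −1.63 over all alternatives.

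Edn2, called at 12 h, had adjusted p from 0.00698 to 0.284 over its alternatives (limma). The count of tested members called there was 1 and became 0 with an offset of 1, with a replicate block, without those 5 arrays and at an adjusted p under 0.01, and it was 0 to 1 when single arrays were left out. With the replicate block Edn2 was 0.92 (limma adjusted p = 0.0719). Arrays of the same number correlated in their deviations from the group means at −0.21 to 0.31. For arrays of different number it was −0.40 to 0.31. The same-number arrays thus did not stand apart, but this does not settle whether the numbers pair them.

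Counts of genes called moved more. At 3 h the 462 became 229 with an offset of 1, 277 with the replicate block, 80 without the 5 arrays and 127 at an adjusted p under 0.01. Single arrays left out gave 161 to 520. At 12 h the 297 became 81 with an offset of 1, 495 with 64, 473 at a mean signal of 16 or more, 536 with a trend and robust prior, 62 with only the groups compared, 183 with the block, 8 without the 5 arrays and 53 at 0.01. Single arrays left out gave 64 to 455. Between 12 h and 3 h the 741 became 435 with an offset of 1, 466 with the block, 16 without the 5 arrays and 235 at 0.01, and 395 to 758 with single arrays left out. Dim probe sets limit what can be seen: 32.9% of genes had a signal under 16 when averaged as log2(signal + 16).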
